A study of Mus musculus with 18 samples.

Results

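Heterozygous Cops8 knockout (Het-CKO) hearts were followed from 2 to 3 weeks of age. The hearts were chosen by their sample titles, which gave 3 hearts at each age, or 6 of the 18 hearts profiled in the study. Ventricular RNA of each heart was hybridised to its own 1-colour CodeLink array, which reads 36227 spots. All animals were FVB/N mice. Het-CKO mice were Csn8flox/+::Myh6-CreTG, so that 1 of their 2 Cops8 alleles was floxed and Cre was driven by the Myh6 promoter, which is active in cardiomyocytes. The littermate groups were CTL mice, Csn8flox/flox::Myh6-CreNTG, which carried floxed alleles without Cre, and homozygous knockouts (Hom-CKO), Csn8flox/flox::Myh6-CreTG, each with 3 hearts per age. Het-CKO and CTL mice therefore differed in the Cre transgene as well as in the number of floxed alleles.

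Cops8 encodes a subunit of the COP9 signalosome, a protein complex that removes the ubiquitin-like protein NEDD8 from cullins and so governs the cycling of cullin-RING ubiquitin ligases. The weeks before weaning are a period of maturation in the mouse heart: cardiomyocytes leave the cell cycle and grow by enlargement, the matrix of the fetal heart is replaced, and the diet shifts from fat-rich milk to carbohydrate-rich solid food. Comparing Het-CKO hearts at 3 and 2 weeks asks which transcripts changed over this interval in hearts that keep 1 intact Cops8 allele. Levels are given below as normalized intensity, on which 1 is the median over all probes and arrays and 0.259 is the floor to which dimmer values were raised, and differences as log2 fold changes of 3 vs. 2 weeks. Levels of different probes are not compared.

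The age groups also differed in sex-linked transcripts. Xist, the RNA that coats the inactive X chromosome, was 17.3, 17.4 and 19.3 in replicates 1, 2 and 3 at 2 weeks and at the floor in all 3 hearts at 3 weeks at its brightest probe. Of its other probes, 1 was at the floor in every Het-CKO heart and 1 did not separate the ages, at 3.19 to 3.36 at 2 weeks and 3.03 to 3.21 at 3 weeks. Ddx3y, a Y-linked RNA helicase, was at the floor in all 3 hearts at 2 weeks and 10.4, 9.39 and 10.2 at 3 weeks. Eif2s3y and Uty, both Y-linked, showed the same division, so that age and sex cannot be told apart among the 6 Het-CKO hearts, although the study's methods state that each group held both sexes. C030026M15Rik, a transcript with no chromosome in the tables used here, followed the Y-linked genes: both of its probes were at the floor at 2 weeks, and at 3 weeks they were 1.79 to 1.82 and 2.57 to 2.92. The CTL hearts were less divided, with Xist signal in all 3 hearts at 2 weeks and in replicates 1 and 3 at 3 weeks. Probes placed on X or Y were left out of every count below, but probes with no chromosome in the tables were kept, and some of these may be X- or Y-linked.

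Het-CKO replicate 2 at 3 weeks stood apart from its group. Transcripts made mainly by liver were high in this heart: albumin (Alb) was 19.2 there and at the floor in both other hearts at 3 weeks, Apoa1 was 9.74 against at most 0.278, and Fabp1 was 5.32 against the floor. At 2 weeks, replicate 2 had Alb at 0.987 and Apoa1 at 0.832, with the other hearts at the floor. Ahsg, the fetuin-A gene, was 2.06, 3.72 and 2.80 in replicates 1, 2 and 3 at 2 weeks and 4.56, 19.5 and 4.66 at 3 weeks at its brightest probe. Among the 10 genes of a liver list that could be tested, the median log2 fold change of 3 vs. 2 weeks was 0.86, and 0.11 without replicate 2. The median probe of replicate 2 lay 0.19 on the log2 scale from the mean of the other 2 hearts, against 0.13 and 0.15 for replicates 1 and 3. Raw signal was also dimmer at 3 weeks, with a median of 32.3 to 36.8 against 51.8 to 57.0 at 2 weeks, and 27.5% to 29.2% of spots lay near background against 20.9% to 22.2%. The arrays of each age were scanned as a set of their own, and the effects of age and of scanning cannot be told apart.

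**Figure D1:**
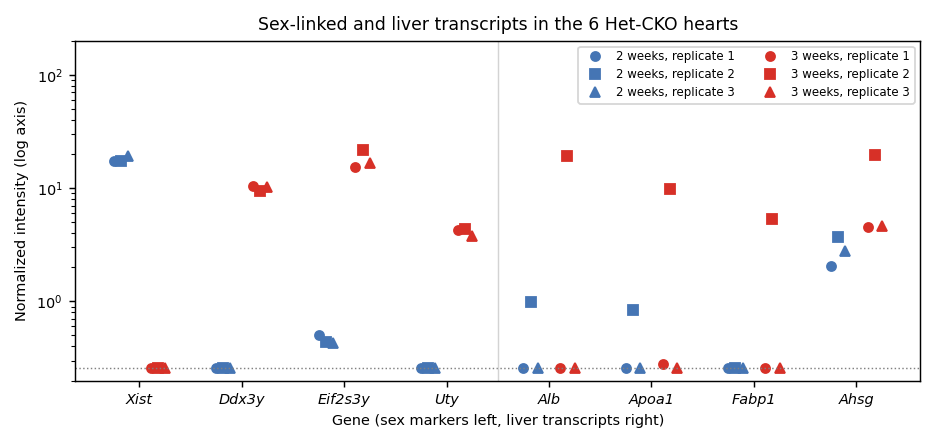
Normalized intensity (log axis) of 4 sex-linked genes and 4 genes of liver transcripts in the 6 Het-CKO hearts. Each symbol is 1 heart, blue at 2 weeks and red at 3 weeks, and the dotted line is the floor of 0.259. Xist is high only at 2 weeks, the Y-linked genes are high only at 3 weeks, and the liver transcripts stand out in replicate 2 at 3 weeks.

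Of 25863 probes tested outside X and Y, 1918 passed the test in Het-CKO 3 vs. 2 weeks, which is 7.42% (limma, Benjamini-Hochberg adjusted p under 0.05). These were 1022 probes that rose and 896 that fell, and 185 of them changed by at least 1 on the log2 scale. Of the 1918 probes 203 had no chromosome, and counting only probes placed on autosomes gave 1715 of 22077. With arrays scaled to a common median in place of quantile normalization, 1326 rose and 608 fell. With each gene taken at its brightest probe, 773 of 16057 genes rose (4.81%) and 592 fell (3.69%). The median log2 fold change of all genes was 0.02. Of the same 16057 genes, 1036 rose and 366 fell under median scaling, and 459 rose and 432 fell without replicate 2 at 3 weeks. The list counts given below for these fits stand against those totals. When a sex score from Xist and the Y-linked genes was added to the fit across all 18 arrays, 204 probes passed. At the gene level 67 of 16057 then rose and 78 fell. In Het-CKO hearts the score was -5.22 to -5.02 at 2 weeks and 4.69 to 4.78 at 3 weeks, so it followed age. Its slope came mainly from the groups that held both sexes, and a call lost in this fit does not show an effect of sex. Without replicate 2 at 3 weeks 1215 probes passed. P-values rest on 1 spread per probe, pooled over the hearts within all groups of the 18 arrays and moderated in limma. They do not measure the spread of the Het-CKO hearts alone, of which there were 3 per age.

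CTL hearts were compared in the same way. Over the same interval 2439 of 16040 genes passed in CTL hearts (15.2%), and 821 genes passed in both genotypes, which is 60.2% of the Het-CKO genes and 33.7% of the CTL genes. Of these, 816 changed in the same direction. The genotypes share no arrays, but they share the scan sets. In CTL hearts with Xist signal alone, that is without replicate 2 at 3 weeks, 1361 of the 1365 genes called in Het-CKO hearts had a value. Of these 1304 had the same sign, and the share with the same sign over all genes was not counted. In the same direction 571 passed, where 7.41% of all genes passed. The difference between the age changes of Het-CKO and CTL hearts passed the test at 1 of 25841 probes (0.00387%, limma), and at 2360 probes with an unadjusted p under 0.05. The 95% interval of that difference had a median half-width of 0.42 on the log2 scale before adjustment (0.35 at the lower and 0.55 at the upper quartile of probes), so that a difference that did not pass is not shown to be absent.

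C030026M15Rik, described above with the Y-linked genes, had larger fitted rises at both probes than any other probe with a gene name outside X and Y (adjusted p = 0.0457 and 0.0369), but these were taken against hearts not above background at 2 weeks. Among genes placed on autosomes the 12 largest rises were, in order, Ahsg, Lrat, Zbtb16, Fmo2, Ccl7, Gsta3, Cyct, Helt, Gcat, H2-Aa, Bdh1 and Tent5b. Lrat, which esterifies retinol for storage, was 0.302, 0.576 and 0.403 at 2 weeks and 1.47, 2.05 and 1.86 at 3 weeks. Every heart at 3 weeks lay above every heart at 2 weeks, and the log2 fold change was 2.11 ± 0.25 (SE, adjusted p = 0.000261). Gcat, a mitochondrial enzyme of threonine breakdown, was 0.868, 1.11 and 1.23 at 2 weeks and 3.59, 4.19 and 3.25 at 3 weeks (log2 fold change 1.79 ± 0.18, adjusted p = 0.000129). Fmo2, a flavin-containing monooxygenase, was 0.423, 0.466 and 0.564 and then 2.26, 2.01 and 1.48 (1.97 ± 0.28, adjusted p = 0.00114). For Gcat and Fmo2, too, the ages did not overlap.

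Zbtb16, a zinc finger transcription factor, was at the floor in all 3 hearts at 2 weeks and 1.5, 0.621 and 1.14 at 3 weeks at the probe that passed, 1 of the 2 probes of this gene. Its log2 fold change of 1.98 ± 0.41 (adjusted p = 0.00897) was taken against values at the floor. In CTL hearts it was 0.435, 0.363 and 0.7 at 2 weeks and was not above background on any array at 3 weeks. Helt, a basic helix-loop-helix repressor, was 0.291 to 0.398 at 2 weeks and 1.04 to 1.51 at 3 weeks. Ccl7, a chemokine that attracts monocytes, was 0.446 and 0.680 in the 2 hearts measured at 2 weeks and 1.79, 3.75 and 1.47 at 3 weeks. It was highest in replicate 2, and its adjusted p of 0.0308 became 0.0943 without that heart. Ahsg, at the head of the list, is a liver transcript. At the probe with its largest change it was 0.280, 0.966 and 0.705 and then 1.45, 7.59 and 1.76, and its adjusted p of 0.0189 became 0.0527 without replicate 2. Of the 12 rises, 10 passed without replicate 2 at 3 weeks and 6 passed with the sex score in the fit (Lrat, Zbtb16, Fmo2, Helt, Gcat and Bdh1). In CTL hearts 9 of the 12 passed in the same direction, and 6 did so among hearts with Xist signal.

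Among genes placed on autosomes the 12 largest falls were Angptl4, Adamts4, Scd4, Pdk4, Fos, Ccnb2, Depdc1a, Mki67, Ckap2l, Aspm, Tnni1 and Ptn. Angptl4, a secreted inhibitor of lipoprotein lipase, was 20.2, 21.6 and 20.0 at 2 weeks and 1.69, 9.24 and 1.73 at 3 weeks. The 2-week hearts were close together, and replicate 2 lay between the other hearts at 3 weeks and the 2-week hearts. The log2 fold change was -2.78 ± 0.51 (adjusted p = 0.00553), and -3.59 without replicate 2. Adamts4, a protease that cuts the proteoglycans aggrecan and versican, was 1.94, 1.78 and 1.70 and then 0.512, 0.321 and 0.404 (-2.15 ± 0.28, adjusted p = 0.000425), and both of its probes passed. Scd4, a stearoyl-CoA desaturase that makes monounsaturated fatty acids, was 3.11, 3.78 and 3.5 and then 1.12, 0.501 and 0.850. Both genes were lower in every heart at 3 weeks than in any heart at 2 weeks.

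Tnni1, the slow skeletal troponin I of the fetal heart, was 1.30, 1.03 and 1.61 at 2 weeks and 0.471, 0.536 and 0.418 at 3 weeks. Its log2 fold change was -1.46 ± 0.29 (adjusted p = 0.00897). In CTL hearts it was 2.24 and 5.77 in the 2 hearts measured at 2 weeks and was not above background on any array at 3 weeks. Ptn, the heparin-binding growth factor pleiotrophin, was 10.4, 10.2 and 9.42 at 2 weeks and 2.63, 6.61 and 2.85 at 3 weeks, with 1 of its 2 probes past the test. Fos, an immediate early transcription factor, was 4.26, 6.08 and 3.06 and then 1.42, 0.888 and 1.20. Its adjusted p of 0.0387 became 0.112 without replicate 2. The other 11 falls passed without that heart, and 3 passed with the sex score in the fit (Adamts4, Scd4 and Pdk4). In CTL hearts 10 of the 12 passed in the same direction, and 9 did so among hearts with Xist signal.

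**Figure D2:**
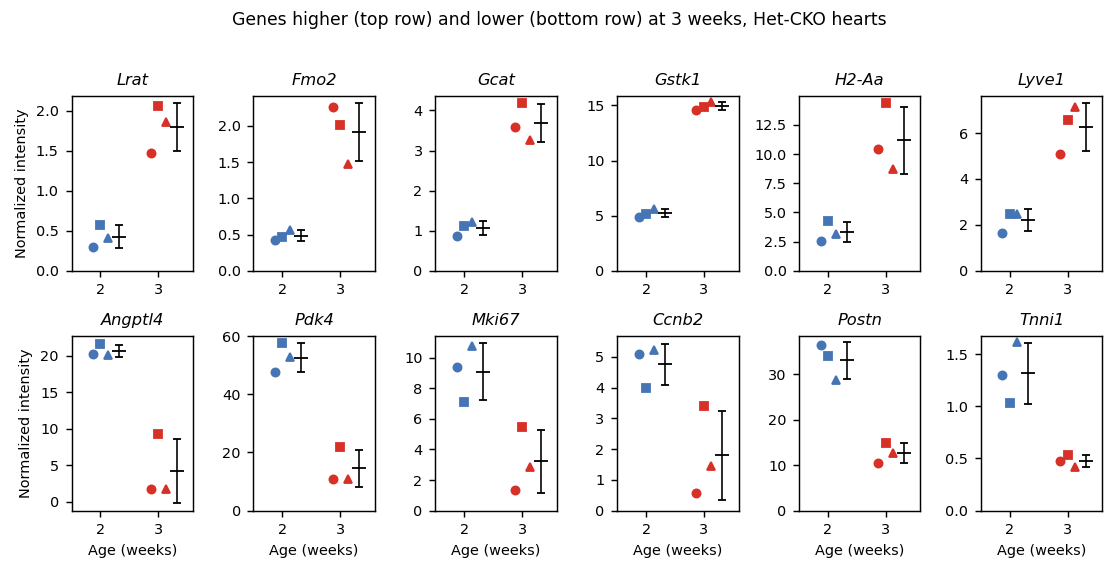
Normalized intensity of 6 genes that rose (top) and 6 that fell (bottom) in the Het-CKO hearts at 2 weeks (blue) and 3 weeks (red). Circles, squares and triangles are replicates 1, 2 and 3, and the black bar is the mean with its SD (n = 3). The ages do not overlap for any of the 12 genes. Replicate 2 at 3 weeks is the highest of its group for Lrat, Gcat and H2-Aa in the top row and for every gene of the bottom row.

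Some genes of cell division fell. Of 36 tested genes of a cell cycle list 9 fell and none rose, with a median log2 fold change of -0.42 against 0.02 for all genes, and 34 of the 36 values were below 0. Mki67, the proliferation marker Ki-67, was 9.39, 7.12 and 10.8 at 2 weeks and 1.35, 5.47 and 2.84 at 3 weeks (-1.70 ± 0.45, adjusted p = 0.0315). Ccnb2, a cyclin that activates the mitotic kinase, was 5.08, 4.00 and 5.22 and then 0.560, 3.39 and 1.46 (-1.75 ± 0.51, adjusted p = 0.0472). The ages did not overlap for either gene, but replicate 2 was nearest to the 2-week hearts for both. Cdc20, an activator of the anaphase-promoting complex, fell by 1.29 and Nusap1, a spindle protein, fell by 1.10 on the log2 scale. The other members that fell were Plk1, Ccnb1, Anln, Bub1b and Ccnd2. Top2a, the topoisomerase of dividing cells, was 2.42, 1.79 and 2.32 and then 0.412, 1.29 and 0.905 (-1.46, adjusted p = 0.0781).

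Replicate 2 was above both other 3-week hearts at 26 of the 31 cell cycle genes measured in all of them. The call for Ccnb2 was lost in 13 of 16 alternative fits, those with median scaling and with the replicate block among them. The count of falls was 6 with median scaling and 5 with the replicate block. Without replicate 2 14 genes of the list fell and the median was -0.58, and with the sex score in the fit 1 passed at a median of -0.61. In CTL hearts 12 of the genes fell, at a median of -0.50, where 15.2% of all genes passed in either direction. Depdc1a, Ckap2l and Aspm, which act in mitosis and stood among the largest falls, were not in the list. Fewer dividing cells and less of these transcripts per cell cannot be told apart in bulk tissue.

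The promoters of these genes are known for CCAAT boxes, the binding site of the factor NF-Y, and are shown here for the members that fell. The letters CCAAT were searched on both strands, where the other strand reads ATTGG, in the 250 bases before the first listed start of each gene in the RefSeq promoter table (GRCm38.p6). Of 28 tested cell cycle genes with an entry, 23 held the motif, as did 6 of the 8 with an entry that fell, against 34.5% of 27025 genes with an entry. The 30 bases around the match nearest to the start are given 5′ to 3′ on the strand of the gene, with the match in capitals.
Ccnb2, chr9:70421559-70421588, minus strand: tgcgtgcgtctacCCAATagtgcgtcagcg
Mki67, chr7:135716504-135716533, minus strand: ctggccgcctggcCCAATcgcagcacttag
Cdc20, chr4:118437344-118437373, minus strand: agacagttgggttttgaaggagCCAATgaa
Plk1, chr7:122159405-122159434, plus strand: ttttaaatccccgcggCCAATcagcaacgc
Ccnb1, chr13:100786537-100786566, minus strand: tgccacgaactggCCAATgaggagcgagcg
Bub1b, chr2:118598085-118598114, plus strand: tgctaggacaaccATTGGtccttgcacctc

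Some genes of the extracellular matrix fell as well. Of 35 tested matrix genes 12 fell and 1 rose, at a median log2 fold change of -0.32. Postn, the matricellular protein periostin, was 36.4, 34.0 and 28.6 at 2 weeks and 10.4, 14.9 and 12.6 at 3 weeks (-1.39 ± 0.18, adjusted p = 0.000377). Col18a1, a basement membrane collagen, was 3.62, 3.57 and 3.95 and then 1.57, 1.22 and 1.5 (-1.38 ± 0.14, adjusted p = 8.21e-05). Fn1, the gene of fibronectin, was 33.6, 31.5 and 34.9 and then 12.5, 14.3 and 16.3 (-1.23 ± 0.13, adjusted p = 0.000142). Each of these genes was lower in every heart at 3 weeks, and for Fn1 replicate 2 lay between the other hearts of its group. Fbn2, the fibrillin of developing tissue, fell by 1.25. The member that rose was Col8a1, a short-chain collagen of vessels, with a log2 fold change of 0.68. Col1a1 and Col1a2, the chains of type I collagen, fell by 0.65 and 0.59, and Col3a1 was 192, 205 and 213 and then 144, 178 and 165 (-0.33, adjusted p = 0.109). Postn, Fn1, Fbn2 and Col1a2 were each tested at 2 probes, of which 1 passed. With the sex score in the fit 6 matrix genes fell, and without replicate 2 11 fell and 1 rose. Under median scaling 9 fell and 1 rose, at a median of -0.12. In CTL hearts 18 fell, where 15.2% of all genes passed in either direction.

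Of 12 endothelial markers 6 fell and 1 rose, at a median of -0.40. Kdr, the main VEGF receptor, was 35.2, 34.6 and 35.3 at 2 weeks and 24.4, 18.9 and 26.2 at 3 weeks (-0.61 ± 0.13, adjusted p = 0.0107). Egfl7, a secreted angiogenic factor, fell by 0.62, and Tie1 and Pecam1 fell by 0.55 and 0.54. The marker that rose was Vwf, the von Willebrand factor gene, which was 4.98, 6.90 and 7.16 and then 11.8, 12.3 and 9.51 (0.83, adjusted p = 0.0177). Without replicate 2 3 markers fell and none rose, with the sex score none passed, and under median scaling 2 fell and 1 rose. Of 12 fibroblast markers 3 fell (Col1a1, Col1a2 and Pi16) and 1 rose. The latter was Gsn, the actin-severing protein gelsolin, which was 78.7, 84.1 and 103 and then 191, 172 and 168 (1.01 ± 0.14, adjusted p = 0.000691). Of 11 smooth muscle and pericyte markers 2 fell, Mylk and Rgs5, by 0.54 and 0.50. Without replicate 2 the falls were 1 fibroblast marker (Col1a2) and 1 smooth muscle marker (Rgs5), and with the sex score Col1a2 alone.

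Of 31 tested genes of fatty acid oxidation and its control 7 fell, none rose and 24 did not pass, at a median of -0.31. The balance depended on the scaling: under median scaling 4 fell and 3 rose, at a median of -0.08. The largest falls were of genes induced by fasting and fat through PPAR receptors. Beside Angptl4, Pdk4, the kinase that shuts off pyruvate dehydrogenase, was 47.5, 57.4 and 52.9 at 2 weeks and 10.8, 22.0 and 10.8 at 3 weeks (-1.94 ± 0.26, adjusted p = 0.000521). Ucp3, a mitochondrial carrier, was 10.1, 12.2 and 10.8 and then 2.94, 7.46 and 3.01 (-1.44 ± 0.31, adjusted p = 0.0106). Replicate 2 at 3 weeks was the highest of its group for these 3 genes, with the ages still apart. It was the lowest of its group at 23 of the 31 genes of the list. Mlycd, which clears the CPT1 inhibitor malonyl-CoA, was 18.5, 18.9 and 18.7 and then 11.2, 10.8 and 12 (-0.72 ± 0.11, adjusted p = 0.00153). Cpt1b, the muscle isoform of carnitine palmitoyltransferase 1, was 59.1, 55.3 and 55.3 and then 44.3, 32.5 and 43.9 (-0.51, adjusted p = 0.214). Without replicate 2 4 members fell, and with the sex score 2 fell.

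Ketone body genes moved both ways, with 3 rises and 1 fall among 8. Bdh1, the dehydrogenase that interconverts the ketone bodies, was not above background on any array at 2 weeks and was 0.952, 0.629 and 0.958 at 3 weeks, which is at least 3.21-fold higher (adjusted p = 0.000142). Oxct1, the enzyme that activates acetoacetate for oxidation, was 66.9, 64.4 and 68.7 and then 100.5, 84.0 and 100.2 (0.50, adjusted p = 0.0154). The ages did not overlap for Bdh1 or Oxct1. In CTL hearts 3 ketone genes rose and 1 fell, where 15.2% of all genes passed in either direction. Of 29 genes of glycolysis and glycogen 2 fell, where 3.69% of all genes did. Fbp2, the muscle fructose bisphosphatase, was 8.09, 10.2 and 8.69 and then 5.60, 3.84 and 3.41 (-1.10 ± 0.17, adjusted p = 0.00147).

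Of genes of branched-chain amino acid breakdown 5 of 16 rose, with no falls and a median of 0.27, and only 1 of the 16 values was below 0. Ppm1k, the phosphatase that activates the branched-chain ketoacid dehydrogenase, was 10.0, 8.99 and 9.08 at 2 weeks and 13.9, 15.9 and 15.8 at 3 weeks (0.69 ± 0.14, adjusted p = 0.00758). Bckdhb and Dbt, subunits of that complex, each rose by 0.47, and Mccc1 rose by 0.45. With the sex score Ppm1k alone passed. In CTL hearts 10 of the 16 rose, at a median of 0.44, where 15.2% of all genes passed in either direction.

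Of genes of the antioxidant and detoxification response controlled by NRF2 8 of 24 rose, with 1 fall and a median of 0.15. Gstk1, a mitochondrial and peroxisomal glutathione transferase, was 4.90, 5.14 and 5.64 at 2 weeks and 14.6, 14.8 and 15.3 at 3 weeks (1.52 ± 0.11, adjusted p = 9.58e-06). Nqo1, a quinone reductase, was 3.30, 3.27 and 3.92 and then 7.42, 8.37 and 7.51 (1.16 ± 0.10, adjusted p = 3.28e-05). Both passed in each of 17 alternative fits, those with the sex score and without replicate 2 included. Gsta3, an alpha class glutathione transferase, was 0.432, 0.513 and 0.429 and then 1.5, 2.82 and 1.21, and was highest in replicate 2 (1.92 ± 0.34, adjusted p = 0.00370, and 0.0660 with the sex score). Ephx1, the microsomal epoxide hydrolase, was 3.65, 4.19 and 3.86 and then 7.79, 8.70 and 6.56, and the other rises were of Gstm1, Gstm2, Cbr1 and Prdx1. The fall was of Cat, the peroxisomal enzyme catalase, at 75.8, 86.0 and 86.4 and then 61.4, 53.6 and 57.2 (-0.53 ± 0.09, adjusted p = 0.00215). Of the 2 probes of Cat tested, 1 passed. With the sex score 5 members rose and 1 fell, where 67 and 78 of all 16057 genes did. Under median scaling 9 rose and none fell, so the call for Cat depended on the scaling. In CTL hearts 12 rose and 1 fell, where 15.2% of all genes passed in either direction.

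NRF2 acts through antioxidant response elements, whose core is TGACNNNGC. In the same 250-base windows and on both strands this motif was held by 4 of the 20 tested NRF2 targets with an entry and by 2 of the 9 with a called change, against 10.1% of all genes with an entry. The matches of both genes are shown with 30 bases each, and that of Prdx1, an antioxidant peroxiredoxin, reads on the opposite strand.
Gsta3, chr1:21240453-21240482, plus strand: caactcaggcaTGACATTGCatttttcttc
Prdx1, chr4:116685455-116685484, plus strand: ccagggaaagcGCTGAGTCAtcccccgtag

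Some transcripts of antigen presentation and macrophages rose. Of 11 class I and II MHC genes 3 rose and none fell, and all 3 belong to class II: H2-Aa was 2.57, 4.25 and 3.16 at 2 weeks and 10.4, 14.4 and 8.75 at 3 weeks (1.75 ± 0.26, adjusted p = 0.00113). H2-Ab1, the partner chain, rose by 1.32 and Cd74, the invariant chain, rose by 1.23. The median of the 11 genes was 0.16, with 5 values below 0, and it was -0.10 with the sex score in the fit. Of 11 macrophage and myeloid markers 3 rose, none had a value below 0, and the median was 0.63. Lyve1, a hyaluronan receptor of resident macrophages and lymphatic vessels, was 1.65, 2.47 and 2.48 and then 5.10, 6.59 and 7.13 (1.52 ± 0.26, adjusted p = 0.00316). Cd14, a co-receptor for lipopolysaccharide, was 2.89, 3.33 and 2.74 and then 4.74, 7.47 and 4.56. Its adjusted p of 0.0271 became 0.108 without replicate 2 at 3 weeks (limma). Without that heart 2 macrophage markers rose, and the list median was 0.46. The ages did not overlap for H2-Aa, Lyve1 or Cd14.

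Of 13 complement genes 4 rose and 1 fell, at a median of 0.45. C1qa, made by macrophages, was 14.0, 15.8 and 15.1 and then 27.2, 37.4 and 23.7 (0.95 ± 0.19, adjusted p = 0.00698), and C1qb and C1qc rose by 0.88 and 0.81. Serping1, the C1 inhibitor, was 20.5, 22.0 and 23.9 and then 36.4, 39.5 and 36.4. Masp1, a protease of the lectin pathway, fell by 0.53. Replicate 2 was above both other 3-week hearts at 12 of the 13 complement genes, and without it 2 rose and 1 fell. With the sex score Lyve1 was the only macrophage marker and no MHC or complement gene passed. Of 12 lymphocyte and thymus markers and 7 neutrophil markers none passed, with medians of -0.13 and 0.09. Over all genes 4.81% rose and 3.69% fell, so these counts of 0 are near the background. Ighm, the heavy chain of IgM, was 2.10, 2.00 and 1.88 and then 2.67, 4.37 and 2.45 (0.62, adjusted p = 0.146). In CTL hearts 5 MHC genes and 8 macrophage markers rose, where 15.2% of all genes passed in either direction.

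**Figure D3:**
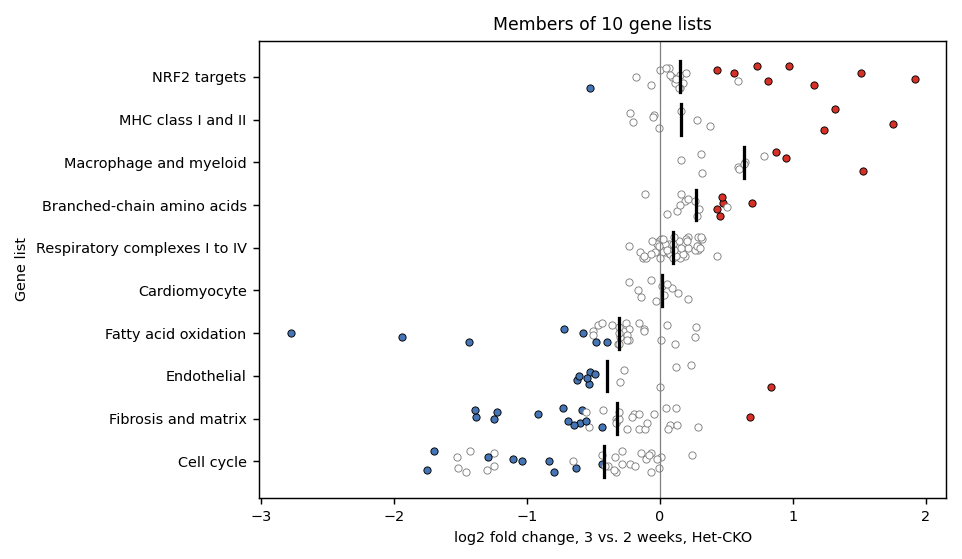
log2 fold change of 3 vs. 2 weeks in Het-CKO hearts for the tested members of 10 gene lists. Each point is a gene at its brightest probe, filled red (rose) or blue (fell) where the adjusted p was under 0.05 and open otherwise, and black bars are list medians. Values of the cell cycle, matrix, endothelial and fatty acid lists lie mostly below 0 (medians -0.42, -0.32, -0.40 and -0.31), and macrophage markers all lie above 0.

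Genes of the circadian clock and of glucocorticoid response moved in both directions. Of 18 clock genes 3 rose and 3 fell. Arntl, which encodes the activator BMAL1, was 3.32, 2.95 and 2.94 at 2 weeks and 1.81 and 1.11 in the 2 hearts measured at 3 weeks, replicates 1 and 3 (-1.11 ± 0.28, adjusted p = 0.0254). Its partner Clock fell by 0.57. Nr1d2, a repressor of Arntl, was 1.64, 1.79 and 1.62 and then 3.12 and 2.66 in the same 2 hearts (0.77 ± 0.17, adjusted p = 0.0147). Ciart, a repressor of CLOCK and BMAL1, rose by 0.59 and Hlf by 0.46. Nr1d1 was 46.3, 39.2 and 35.9 and then 35.3, 30.3 and 30.2 (-0.34, adjusted p = 0.0726), and Per2 was 2.67, 2.23 and 2.61 and then 2.39, 2.35 and 2.49 (adjusted p = 0.897). No clock gene passed with the sex score, and the hour at which hearts were taken was not given in the sources used here. CLOCK and BMAL1 bind the E-box CACGTG, a palindrome, which was held by 5 of the 15 tested clock genes with an entry, by 1 of the 5 with a called change and by 6.05% of all genes with an entry. Ciart held 3 copies in its 250 bases, of which these 30 bases show the 2 nearest to its start.
Ciart, chr3:95882262-95882291, minus strand: ggaggCACGTGcagaaccgCACGTGtctgg

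Of 18 glucocorticoid targets 4 rose and 2 fell, the latter being Angptl4 and Pdk4. Klf15, a regulator of amino acid and lipid use in muscle, was 1.54, 1.64 and 1.79 at 2 weeks and 3.83, 2.35 and 4.28 at 3 weeks (1.03 ± 0.19, adjusted p = 0.00515). The metallothioneins Mt2 and Mt1 rose by 1.04 and 0.59, and Cebpd by 0.60. With the sex score none of the 4 passed. Of 22 immediate early genes 3 fell and none rose: beside Fos, Jun was 24.2, 24.0 and 24.2 and then 12.5, 11.6 and 16.1 (-0.86 ± 0.19, adjusted p = 0.0127), and Klf4 fell by 0.45. Without replicate 2 1 of the 3 passed. Among 18 growth-linked imprinted genes 2 fell. Igf2, the fetal growth factor, was 35.1, 33.9 and 29.5 and then 16.6, 24.7 and 17.6 (-0.76 ± 0.17, adjusted p = 0.0126), and Grb10, an inhibitor of insulin signaling, fell by 0.55. H19 was 26.5, 31.0 and 26.7 and then 15, 24.0 and 15.1 (-0.67, adjusted p = 0.0792). Under median scaling none of the 18 imprinted genes passed.

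None of 11 cardiomyocyte markers passed, with values from -0.23 to 0.21 and a median of 0.01. Tnni3, the adult cardiac troponin I, was 422, 431 and 398 at 2 weeks and 431, 411 and 458 at 3 weeks, and Myh6, whose promoter drives Cre, was 5.89, 4.95 and 5.72 and then 6.37, 4.00 and 5.71. The ages overlapped for both. Of 21 adult sarcomere genes 1 rose, Tcap, the titin cap protein telethonin, which was 87.7, 99.5 and 95.2 and then 152, 139 and 150 (0.64 ± 0.11, adjusted p = 0.00298). Of 29 ion channel genes Kcnj12 rose by 0.44 and Kcne1, a potassium channel subunit, fell by 1.35, from 3.49, 2.82 and 3.56 to 1.48, 1.08 and 1.31. Over all genes 4.81% rose and 3.69% fell, so the sarcomere and channel counts are near the background. Among 11 genes of the fetal program Tnni1 alone passed. Nppa, the natriuretic peptide of atria and stressed ventricles, was 6.66, 4.80 and 16.4 and then 20.1, 13.3 and 20.6 (1.13, adjusted p = 0.0869), and Nppb was 59.4, 54.1 and 50.8 and then 49.0, 38.3 and 59.3 (adjusted p = 0.682). None of 9 atrial or 8 skeletal muscle markers passed. The summed level of the atrial markers was 44.05, 45.65 and 169.4 at 2 weeks, where replicate 3 stood apart, and 99.54, 82.81 and 109.6 at 3 weeks.

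Of 45 genes of respiratory complexes I to IV and 14 of ATP synthase none passed, with medians of 0.10 and -0.01. This depended on the scaling: with arrays scaled to a common median, 25 of the 45 rose at a median of 0.48, as did 6 of the 14, 6 of the 11 cardiomyocyte markers and 8 of the 21 adult sarcomere genes (median 0.37), where the median of all genes was 0.08.

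Cops8 itself was read by 2 probes, whose position relative to the floxed exons is not given in the sources used here. They were 37.5, 34.2 and 34.8 and then 35.4, 30.2 and 26.9 at the brighter probe (-0.21, adjusted p = 0.253), and 22.8, 23.3 and 22.1 and then 25, 24.3 and 21.4 at the other (0.05, adjusted p = 0.816). The ages overlapped at both. None of the 9 signalosome genes tested passed, where 4.81% of all genes rose and 3.69% fell, so that a count of 0 among 9 is near the background. Under median scaling 1 of the 9 rose. The values ran from -0.21 to 0.29. Cops3 was 13.0, 13.3 and 13.5 and then 15.9, 16.5 and 16.2 (0.29, adjusted p = 0.125), and Cops6 was 30.8, 34.8 and 32.0 and then 37.8, 37.2 and 38.8 (0.22, adjusted p = 0.126). Both were higher in every heart at 3 weeks. None of 31 proteasome subunits passed (3 rose under median scaling), and of 18 cullins and core ligase genes Ddb1, the CUL4 adaptor, fell by 0.31. Among 54 F-box substrate receptors Fbxo44 and Fbxl6 rose by 0.51 and 0.36 and Fbxl7 fell by 0.52, and among 29 SOCS-box receptors Asb14 rose by 0.57.

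The age change was then compared between Hom-CKO and Het-CKO hearts, whose only labelled difference is the second floxed allele. It differed at 225 of 25846 probes (0.871%), more positive in Hom-CKO at 172 and more negative at 53. Among the genes named, Bdh1 had the largest difference. It reached 0.629 to 0.958 at 3 weeks in Het-CKO hearts, and in Hom-CKO hearts it was 0.493, 0.508 and 0.321 at 2 weeks and 15.1, 18.0 and 15.3 at 3 weeks (difference 3.54 ± 0.26, adjusted p = 8.98e-07). Ido1, which breaks down tryptophan, was 1.05, 0.838 and 1.48 and then 2.04, 1.21 and 1.56 in Het-CKO hearts, where it did not pass, and reached 28.7, 29.4 and 32.0 in Hom-CKO hearts (difference 3.29 ± 0.32, adjusted p = 4.43e-05). Cda, cytidine deaminase, was 0.973, 0.995 and 1.02 and then 0.804, 0.978 and 0.699 in Het-CKO hearts, and 10.0, 13.3 and 9.40 in Hom-CKO hearts at 3 weeks. Every Het-CKO heart was at the floor for Serpinb1c and Gm15743, and Rasgrf2, a Ras exchange factor, did so in 5. Their Hom-CKO hearts at 3 weeks ranged from 1.49 to 7.49.

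Of the genes whose change was more negative in Hom-CKO hearts, Lrat, 2310039L15Rik, 2210407C18Rik and Gm34016 rose with age in both Het-CKO and CTL hearts. Lrat rose in Het-CKO hearts as above and was 0.553, 0.648 and 0.550 and then 0.404, 0.522 and 0.496 in Hom-CKO hearts (difference -2.41 ± 0.36, adjusted p = 0.00213). The Hom-CKO hearts at 3 weeks thus lay within the range of Het-CKO hearts at 2 weeks. 2310039L15Rik was 0.883, 0.806 and 0.904 and then 1.70, 1.45 and 1.79 in Het-CKO hearts, where it rose, and fell by 0.68 in Hom-CKO hearts (difference -1.60, adjusted p = 0.000204). 2210407C18Rik behaved alike, with a rise of 1.05 in Het-CKO hearts and a fall by 0.63 in Hom-CKO hearts. Gm34016 rose by 1.46 in Het-CKO hearts, from 2 hearts at 3 weeks, and was at the floor in all 6 Hom-CKO hearts. Jade1, a subunit of a histone acetyltransferase complex, did not pass in Het-CKO hearts, where it was 20.2, 21.1 and 18.8 and then 21.3, 17.5 and 17.9, and was 4.41, 4.36 and 3.96 in Hom-CKO hearts at 3 weeks (difference -1.99 ± 0.17, adjusted p = 7.81e-06). Hom-CKO hearts differed in sex-linked transcripts too, with Y-linked signal in replicates 2 and 3 at 2 weeks and in replicate 2 at 3 weeks, and 91 probes passed with the sex score in the fit.

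Uts2r, the receptor for the vasoactive peptide urotensin 2, was the gene whose age change differed between Het-CKO and CTL hearts. It was 1.10, 1.26 and 1.18 and then 0.947, 0.793 and 0.982 in Het-CKO hearts, and 0.7, 0.688 and 0.775 and then 1.11, 1.21 and 1.20 in CTL hearts. The change was -0.38 in the former and 0.70 in the latter, and the difference was -1.08 ± 0.14 (adjusted p = 0.0416). No probe passed for this comparison with the sex score in the fit, or in 5 of the 6 fits that left out a Het-CKO heart.

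**Figure D4:**
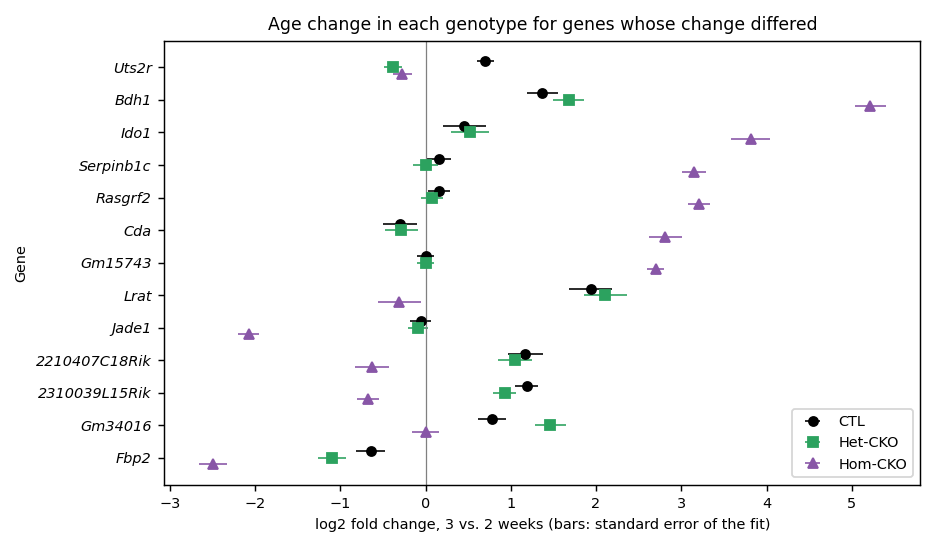
log2 fold change of 3 vs. 2 weeks in CTL (circles), Het-CKO (squares) and Hom-CKO (triangles) hearts for the genes named for a difference in age change between genotypes, with the standard error of the fit. Het-CKO and CTL values differ by at most 0.69 except for Uts2r (1.08), and Hom-CKO values lie apart from both for the other 12 genes.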

How the data were processed

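The authors deposited scanner output of 18 CodeLink Whole Mouse Genome arrays, 1 per heart, with a raw intensity per spot, and a value table of the series. The study's methods name quantile normalization and t-tests with Benjamini-Hochberg adjustment. Here the deposited intensity of 34967 discovery probes was used, leaving out spots the scanner software marked as contaminated, irregular or masked (1.80% to 2.57% per array). Intensities were quantile normalized over 18 arrays, floored at the 1st percentile of values above background (0.259) and put on the log2 scale. The 26606 probes above background in every heart of at least 1 group were fitted in limma 3.58.1 (R 4.3.3), each group having its own mean, with Benjamini-Hochberg adjustment over all these probes. Probes on X and Y (996) were left out of counts, and 5763 probes had no chromosome. Lists were counted at each gene's brightest probe. Some named genes with several probes passed at only 1 of them, such as Ckap2l and Sesn1 (1 of 3) and Grb10 (1 of 4). The sex score was the mean log2 level of 4 Y-linked genes (Ddx3y, Eif2s3y, Uty and Kdm5d) minus that of Xist. Kdm5d separated the Het-CKO hearts less, at 2.295 to 2.52 at 2 weeks and 2.927 to 3.371 at 3 weeks. It was above background in every one of them. The fit was tested on simulated data.

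Groups came from sample titles. Named were the signalosome genes, the 12 largest called rises and falls whose ages did not overlap (the rule left out X and Y, and genes with no chromosome were left out too, which removed C030026M15Rik), up to 4 called members per list each way, up to 6 genes each way with a called difference between genotypes, and a set of defining genes. The members and the 33 pathway and 13 marker lists were chosen with earlier results of these data known, and the liver list after the levels were seen. The number of arrays limits the precision. Alternatives were other normalizations, filters, floors, spot rules, sample sets and tests, the replicate block, the sex score and leaving out each heart. Some called list members are counted but not reported by name here.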

Additional observations from a re-analysis of the deposited data

Results flagged for a closer look

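The genes below drew attention because their change from 2 to 3 weeks differed between genotypes by a test of the difference itself. Against CTL hearts this held for Uts2r, with a difference of -1.08 on the log2 scale. Between Hom-CKO and Het-CKO hearts the change was more positive in Hom-CKO hearts for Bdh1 (3.54), Ido1 (3.29), Serpinb1c (3.15), Rasgrf2 (3.13), Cda (3.10) and Gm15743 (2.70). It was more negative in Hom-CKO hearts for Lrat (-2.41), Jade1 (-1.99), 2210407C18Rik (-1.67), 2310039L15Rik (-1.60), Gm34016 (-1.46) and Fbp2 (-1.40). Fbp2 fell in all 3 genotypes, by 1.10 in Het-CKO, 0.64 in CTL and 2.49 in Hom-CKO hearts. Differences that involve a gene at the floor depend on the level of the floor.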

How the results depend on the processing

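Het-CKO 3 vs. 2 weeks gave 1918 called probes (1022 higher, 896 lower). With only the groups compared it gave 1541 (839 higher, 702 lower). It gave 3012 with cyclic loess (1156 higher, 1856 lower), 185 with the methods' t-test, 204 with the sex score (85 higher, 119 lower) and 669 to 1263 when 1 heart was left out. Median scaling gave 1326 higher and 608 lower, and the deposited values of the series gave 1316 higher and 609 lower. For the age change of Het-CKO minus CTL, the 1 called probe became 2 with median scaling, the series value table or a floor at the 5th percentile, 11 with cyclic loess, 0 with probes above background on all 18 arrays, with only the groups compared, with the replicate block or with the sex score, and 0 to 4 without 1 heart. For Hom-CKO minus Het-CKO, 225 became 347 with the higher floor, 402 with only the groups compared, 91 with the sex score and 126 to 194 without 1 heart. For CTL 3 vs. 2 weeks, 4184 became 145 with only the groups compared, 17 with the methods' t-test, 2721 with the sex score and 2034 to 4854 without 1 heart. Replicate numbers were not used to pair the hearts in the main fit. Deviations of same-numbered Het-CKO hearts at 2 and 3 weeks correlated at 0.07, 0.06 and 0.07. Hearts of different numbers were not compared in this way, so pairing is not excluded. With the replicate block 1772, 0, 207 and 4130 probes passed in the 4 comparisons. The causes of these shifts were not tested. No named gene reversed. Of 110 named probes called, 85 lost their call with the sex score, which divided the Het-CKO hearts exactly by age. With the methods' t-test 100 lost it, and without 1 heart 25 to 52 did. Signal near background limited dim genes, more so at 3 weeks.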

Other observations

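Several gene lists not described above held few called members in Het-CKO 3 vs. 2 weeks. Over all genes 4.81% rose and 3.69% fell, and the counts of these lists were not tested against those shares. Of 26 interferon response genes 2 rose, at a list median of 0.32. Iigp1, an interferon-inducible GTPase, was 5.35, 5.32 and 5.98 at 2 weeks and 9.17, 22.7 and 12 at 3 weeks (1.29 ± 0.28, adjusted p = 0.0114), with replicate 2 the highest, and Igtp, of the same family, rose by 0.70. Of 15 genes of the integrated stress response Trib3 and Atf5 rose, by 0.61 and 0.52, and of 25 heat shock and endoplasmic reticulum chaperones Sdf2l1 rose, from 3.05, 2.91 and 3.42 to 5.73, 6.04 and 6.44 (0.96 ± 0.16, adjusted p = 0.00298). Of 17 p53 targets Sesn1 and Ccng1 rose by 0.48 and 0.46, and Plk2 fell by 0.64. Gdf15, a stress cytokine on both the p53 and the stress lists, lay at 0.276 to 0.341 and then 0.297 to 0.438 (adjusted p = 0.778).

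Of 6 erythroid markers Slc4a1, the anion exchanger of red cells, rose by 0.91, and Tfrc, the transferrin receptor, was 47.1, 52.8 and 60.1 and then 31.6, 19.6 and 33.4 (-0.95 ± 0.20, adjusted p = 0.0102). Of 6 adipocyte markers Cidea, a lipid droplet protein, was 17.7, 18.2 and 18.2 and then 11.6, 9.32 and 11.8 (-0.73 ± 0.15, adjusted p = 0.0102). Adipoq, the adipocyte hormone adiponectin, was at the floor at 2 weeks and 0.480, 0.554 and 0.556 at 3 weeks and did not pass (adjusted p = 0.162). S100a1 was the called gene among 18 of calcium handling, with a rise of 0.36, Bnip3 among 38 of autophagy, with a rise of 0.35, and Sc5d (rose by 0.49) and Elovl5 (fell by 0.43) among 26 of lipid synthesis. Fmo2 rose and Aldh1a2 fell, by 0.68, among 17 xenobiotic genes, and Slc16a10 rose and Ucp3 fell among 13 of the thyroid hormone axis. No member passed among 8 autosomal genes with sex-biased expression, 8 neural and 6 lung markers.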
